A study of Mus musculus with 17 samples.

Results

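Pitx1, Tbx4, Tbx5 and Isl1, the transcription factors that set the identity of hindlimbs and forelimbs, were followed through 15 RNA sequencing libraries of mouse limb buds. They are the 4 genes named for this purpose among 34682 in the count table, and all 4 passed the filter on low counts that left 17655 genes for testing. The study measured polyA RNA at stage E12.5 in animals with structural variants of the Sox9/Kcnj locus and asked how such variants alter the genes around them. Dup-C (2 libraries) and Dup-L (2 libraries) are duplications at that locus. Dup-L∆Bor (4 libraries, named R2 to R5 in the column headers) carries Dup-L together with ∆Bor, the deletion of a boundary between chromatin domains. ∆Bor was also sequenced alone, as heterozygotes (∆Bor het, 2 libraries) and as 1 homozygous sample (∆Bor hom), and 4 libraries were wild type (WT). The labels give no zygosity for Dup-C, Dup-L or Dup-L∆Bor, no strain, and no statement of which limbs were taken. They do not say whether replicates came from separate embryos, so the p-values cover no more than the variation among these libraries, and that variation may be technical. Another 2 samples, fingertips of stage E17.5 from Dup-C and WT, are not analysed here.

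Forelimb and hindlimb buds look much alike when they form and share most of their patterning genes, but they switch on different selector genes. Tbx5 is required to start the forelimb, whereas Isl1 acts early in the hindlimb field, Pitx1 gives the hindlimb its shape and helps to maintain Tbx4, and Tbx4 supports hindlimb outgrowth. In a wild-type mouse embryo Pitx1 is absent from the forelimb, and Tbx4 and Tbx5 are each strong in one pair of limbs and weak in the other, so their order differs between forelimb and hindlimb tissue.

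Libraries held 34486256 (WT 4) to 53711742 (WT 3) counts. All 8 limb mesenchyme markers (among them Prrx1, Msx1 and Hoxd13) were above 10 CPM (counts-per-million values, scaled by TMM library sizes) in every library. Markers of other organs that use these regulators were low beside the limb mesenchyme markers, which summed to 1460 to 2220 CPM. Not all were low beside Isl1, which ranged from 0.278 to 3.79 CPM. The 12 neuron markers summed to 21.2 to 35.5 CPM, the 6 heart markers to 2.2 to 8.98 CPM, the 7 lung and pituitary markers to 1.12 to 2.02 CPM and the 4 gut and tail endoderm markers to 2.77 to 4.72 CPM. Nkx2-1 was at 0 in every library, and Nkx2-5 and Cdx2 had at most 1 count. Other members of these lists were present, with up to 329 counts for Myh6, 137 for Gata4, 255 for Sox17 and 86 for Pomc. Among the neuron markers, Tubb3 reached 16.7 CPM and Stmn2 14.6 CPM. The headers' library numbers fall in 2 ranges, here called the first batch (Dup-C, Dup-L, both ∆Bor groups, WT 1 and WT 2) and the second batch (Dup-L∆Bor, WT 3 and WT 4). In bulk tissue, fewer cells of a type and less RNA per cell cannot be told apart.

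Promoter windows were available for only 2 of the 4 genes, Tbx4 and Isl1, and both windows are shown for that reason. They run from 250 bases before to 50 after the RefSeq start on GRCm38.p6, at chr11:85896515-85896814 (plus strand) for Tbx4 and chr13:116309639-116309938 (minus strand) for Isl1. The letters TAATCC, the core read by bicoid-type homeodomain proteins such as Pitx1, are in capitals.
Tbx4: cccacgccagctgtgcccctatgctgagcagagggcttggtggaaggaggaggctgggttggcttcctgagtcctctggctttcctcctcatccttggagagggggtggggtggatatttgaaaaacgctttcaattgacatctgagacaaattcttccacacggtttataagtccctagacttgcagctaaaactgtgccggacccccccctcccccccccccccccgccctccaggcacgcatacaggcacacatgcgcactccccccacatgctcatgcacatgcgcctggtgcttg
Isl1: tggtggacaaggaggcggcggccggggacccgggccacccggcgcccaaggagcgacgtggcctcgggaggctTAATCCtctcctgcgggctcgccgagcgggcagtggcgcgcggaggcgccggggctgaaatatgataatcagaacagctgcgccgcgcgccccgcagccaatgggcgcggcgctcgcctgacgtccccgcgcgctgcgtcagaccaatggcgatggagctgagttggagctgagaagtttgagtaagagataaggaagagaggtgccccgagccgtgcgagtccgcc
Searched on both strands, TAATCC stood once in the Isl1 window, from base 74 of its 5′ end, and 7.06% of 32817 mouse promoters of this length hold it. The T-box half-site GGTGTGA was searched in the same way. It is held by 3.98% of promoters. Neither window held GGTGTGA, and the Tbx4 window did not hold TAATCC; no binding was measured here.

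Pitx1, a paired-type homeodomain factor and the selector of hindlimb identity, had the widest range of the 4 genes. It stood at 88.1 and 69.2 CPM in Dup-C and at 0.518 and 0.677 CPM in Dup-L. In Dup-L∆Bor R2 to R5 the levels were 65.9, 73.9, 59.5 and 40.5 CPM, with 39.9 and 116 CPM in ∆Bor het and 80.2 CPM in ∆Bor hom, against 59.8, 1.83, 70.1 and 1.83 CPM in WT 1 to 4. Both Dup-L libraries and WT 2 and WT 4 were low, and the other 11 libraries were high. The highest of the low libraries lay 21.8-fold below the lowest of the high ones. The low levels were not at 0: they rested on 19 and 25 counts in Dup-L and on 102 and 66 counts in WT 2 and WT 4. Dup-L lay below even these WT libraries, with 95% Poisson intervals of 0.312 to 0.809 and 0.438 to 1 CPM in Dup-L, against 1.49 to 2.22 and 1.42 to 2.33 CPM in WT 2 and WT 4. Such intervals cover counting error only. Within WT, the highest library was 38.3-fold above the lowest, whereas the 4 Dup-L∆Bor libraries spanned 1.83-fold and the 2 of ∆Bor het 2.92-fold.

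Tbx4, the T-box factor of hindlimb outgrowth, separated the same libraries by a smaller gap. It stood at 76.3 and 66.7 CPM in Dup-C and at 19.6 and 18.8 CPM in Dup-L. In Dup-L∆Bor R2 to R5 the levels were 109, 104, 97.6 and 93.0 CPM, with 64.9 and 69.3 CPM in ∆Bor het and 62.2 CPM in ∆Bor hom, against 64.4, 25.8, 86.5 and 27.6 CPM in WT 1 to 4. The 4 lowest libraries were again both Dup-L libraries, WT 2 and WT 4, and the next library lay 2.25-fold higher. The 4 Dup-L∆Bor libraries were the 4 highest of all, above every WT library. Unlike Pitx1, Tbx4 was never near the floor, since its lowest library had 694 counts.

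Isl1, a LIM-homeodomain factor that acts upstream in the early hindlimb field, was low everywhere at this stage. It stood at 2.57 and 2.87 CPM in Dup-C and at 0.491 and 0.704 CPM in Dup-L. In Dup-L∆Bor R2 to R5 the levels were 1.90, 1.68, 2.48 and 1.51 CPM, with 3.17 and 3.79 CPM in ∆Bor het and 3.17 CPM in ∆Bor hom, against 2.20, 0.484, 2.11 and 0.278 CPM in WT 1 to 4. The 4 libraries low in Pitx1 were also the 4 lowest in Isl1, with 10 to 27 counts each, and the next library lay 2.15-fold higher. The order inside those 4 differed between the genes: WT 4 and WT 2 were lowest for Isl1, and Dup-L for Pitx1 and Tbx4. Isl1 is also a gene of motor and sensory neurons. The 12 neuron markers did not move as 1 group. Their sum spanned 27.8 to 31.0 CPM in Dup-L and 27.9 to 30.2 CPM in WT, and Chat, which makes acetylcholine, had at most 1 count in any library. Isl2, the motor neuron relative of Isl1, was low where Isl1 was low, at 0.491 and 0.569 CPM in Dup-L, against 1.89, 0.897, 1.88 and 0.916 CPM in WT 1 to 4. It was low in Dup-L∆Bor R5 too, at 0.849 CPM, below WT 2 and WT 4. Tubb3, a neuronal tubulin, stood at 7.22 and 6.47 CPM in Dup-L, against 9.54 to 15.4 CPM in WT. Stmn2, another neuron marker, ran the other way, at 14.6 and 13.7 CPM in Dup-L, against 5.87 to 12.1 CPM in WT. Slc5a7, the choline transporter, reached 170 counts and Mnx1, a motor neuron factor, 26 counts. The part of neurons in the level of Isl1 was not tested.

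Tbx5, the T-box factor that starts the forelimb, ran the other way. It stood at 111 and 101 CPM in Dup-C and at 186 and 184 CPM in Dup-L. In Dup-L∆Bor R2 to R5 the levels were 113, 94.4, 99.5 and 86.2 CPM, with 92.4 and 104 CPM in ∆Bor het and 96.9 CPM in ∆Bor hom, against 136, 233, 102 and 191 CPM in WT 1 to 4. The 4 libraries low in Pitx1, Tbx4 and Isl1 were the 4 highest in Tbx5, and the lowest of them lay 1.35-fold above the next library, WT 1. The gap was the smallest of the 4 genes. No library lacked Tbx5, and the lowest still had 3251 counts.

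**Figure D1:**
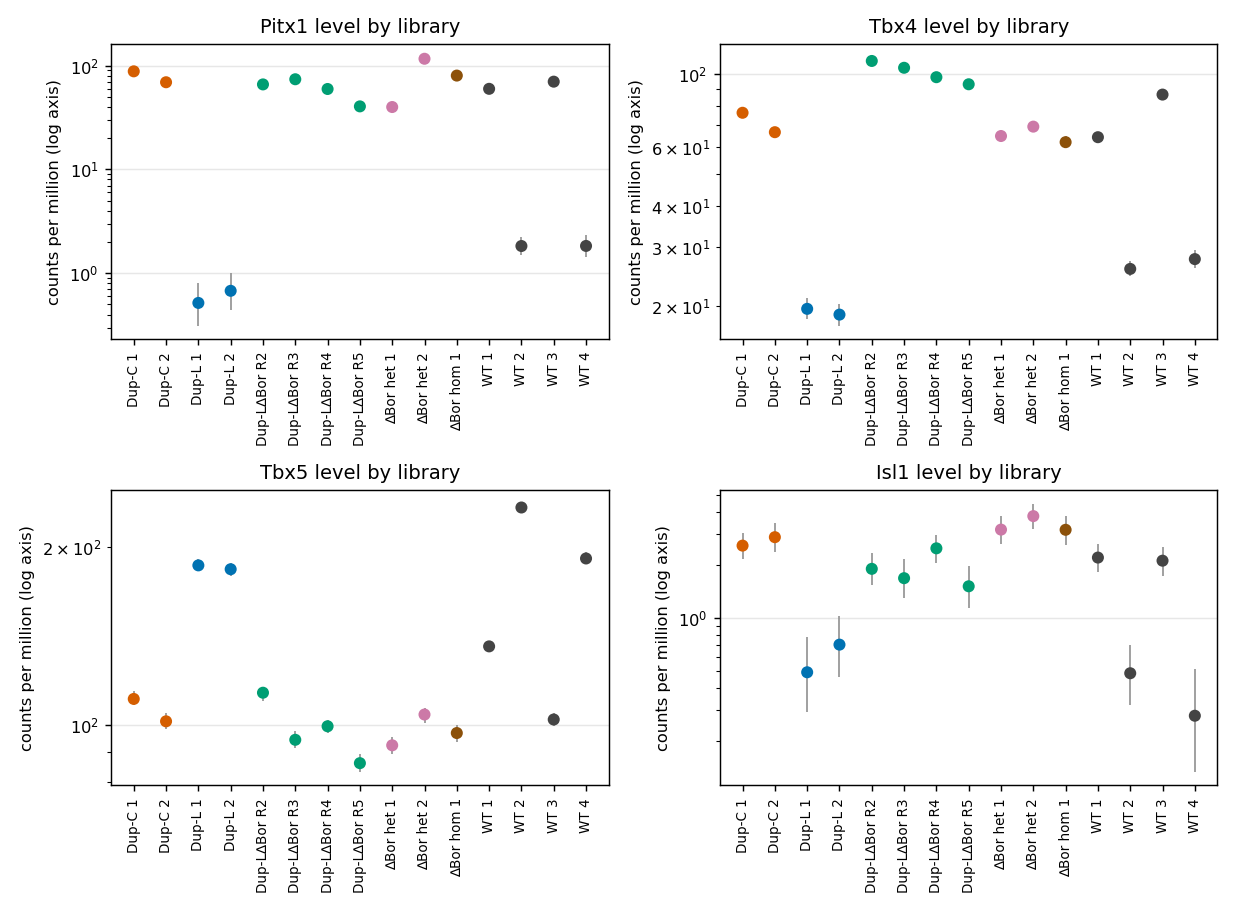
Levels of Pitx1, Tbx4, Tbx5 and Isl1 in each of the 15 libraries, in CPM on log axes whose ranges differ between panels, with genotypes from left to right and WT last. Points are single libraries and bars are 95% Poisson counting intervals; both Dup-L libraries with WT 2 and WT 4 form the low set for Pitx1 (0.518 to 1.83 CPM), Tbx4 and Isl1 and the high set for Tbx5 (184 to 233 CPM).

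Levels of different genes were compared on the authors' FPKM scale, which divides by gene length. In FPKM the order Tbx5, Tbx4, Pitx1, Isl1 from high to low was found in 5 libraries: both Dup-L libraries, WT 2, WT 4 and ∆Bor het 1. In the first 4 of these the steps from Tbx5 to Tbx4 and from Tbx4 to Pitx1 were wide. In both Dup-L libraries Tbx5 was at 41.5 and 40.4 FPKM, Tbx4 at 5.28 and 5.01 FPKM and Pitx1 at 0.19 and 0.24 FPKM, where in Dup-L 2 it was level with Isl1. In WT 2 and WT 4 Tbx5 was at 53.5 and 43.7 FPKM, Tbx4 at 7.16 and 7.63 FPKM and Pitx1 at 0.68 and 0.67 FPKM. In ∆Bor het 1 the 3 genes lay close together, with Tbx5 at 20.2, Tbx4 at 17.2 and Pitx1 at 14.0 FPKM. Both Dup-C libraries, ∆Bor het 2 and ∆Bor hom had the order Pitx1, Tbx5, Tbx4, Isl1, with Pitx1 at 31.6, 24.5, 43.0 and 27.9 FPKM and Tbx5 at 24.7, 22.3, 23.9 and 20.9 FPKM.

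In all 4 Dup-L∆Bor libraries Tbx4 was the highest of the 4 genes, at 29.0, 27.8, 26.0 and 24.6 FPKM in R2 to R5. Tbx5 followed in R2, R4 and R5, and Pitx1 in R3. The remaining WT libraries differed in order from each other: WT 1 had Tbx5 (30.5 FPKM) above Pitx1 (21.6) and Tbx4 (17.47), while WT 3 had Pitx1 (25.3 FPKM), Tbx4 (23.5) and Tbx5 (22.9) nearly level. Isl1 was the lowest of the 4, or level with the lowest, in all 15 libraries, at 0.1 to 1.36 FPKM. Tbx5 made up 85.1% to 89.0% of the summed Tbx4 and Tbx5 FPKM in Dup-L, WT 2 and WT 4, and 42.8% to 63.6% in the other 11 libraries.

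Group means set these steps against the spread between replicates. In Dup-C, Pitx1 averaged 28.1 ± 5.07, Tbx5 23.5 ± 1.70 and Tbx4 19.2 ± 2.02 FPKM (SD, n = 2). The spreads of Pitx1 and Tbx5 met, though Pitx1 was above Tbx5 in both libraries. In Dup-L∆Bor, Tbx4 averaged 26.8 ± 1.94 FPKM, Tbx5 21.6 ± 2.53 FPKM and Pitx1 21.2 ± 5.09 FPKM (n = 4), so Tbx5 and Pitx1 were level within their spread. In ∆Bor het, Pitx1 averaged 28.5 ± 20.5 FPKM, Tbx5 22.1 ± 2.63 FPKM and Tbx4 18.2 ± 1.46 FPKM (n = 2), and the spread of Pitx1 covered both others. In Dup-L the order was Tbx5 at 41.0 ± 0.792 FPKM, Tbx4 at 5.14 ± 0.191 FPKM, and Pitx1 (0.215 ± 0.0354 FPKM) and Isl1 (0.205 ± 0.0495 FPKM) level with each other (n = 2). In WT, Tbx5 averaged 37.7 ± 13.6 FPKM, and the spreads of Tbx4 (13.9 ± 7.95 FPKM) and Pitx1 (12.1 ± 13.2 FPKM) overlapped (n = 4). Within libraries the 2 genes did differ. Tbx4 was far above Pitx1 in WT 2 (7.16 against 0.68 FPKM) and WT 4 (7.63 against 0.67 FPKM), and below it in WT 1 and WT 3.

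Set against the wild-type pattern given above, the order in Dup-L 1, Dup-L 2, WT 2 and WT 4 (Tbx5 far above Tbx4, Pitx1 and Isl1 near the floor) is that of forelimb buds. The other 11 libraries were Dup-C 1 and 2, Dup-L∆Bor R2 to R5, ∆Bor het 1 and 2, ∆Bor hom, WT 1 and WT 3. They held more Pitx1 (39.9 to 116 CPM) and Tbx4 (62.2 to 109 CPM) than the libraries of the forelimb pattern. Tbx5 was high in them at the same time, at 86.2 to 136 CPM. Together that is the pattern of RNA from both limb types, and no library had the pattern of hindlimb buds alone. No label names a hindlimb library, so hindlimb levels of these genes were not measured. Pools of forelimbs and hindlimbs, and cells that express both sets of genes, cannot be told apart in these data. Every Dup-L library thus had the forelimb pattern, every Dup-C, Dup-L∆Bor and ∆Bor library the pattern of both, and WT had 2 libraries of each, 1 in each batch. When Dup-L∆Bor or Dup-C is set against Dup-L, genotype and limb pattern therefore go together and cannot be told apart. In each comparison with WT, the WT group mixed both patterns, so limb pattern was not separated from genotype.

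**Figure D2:**
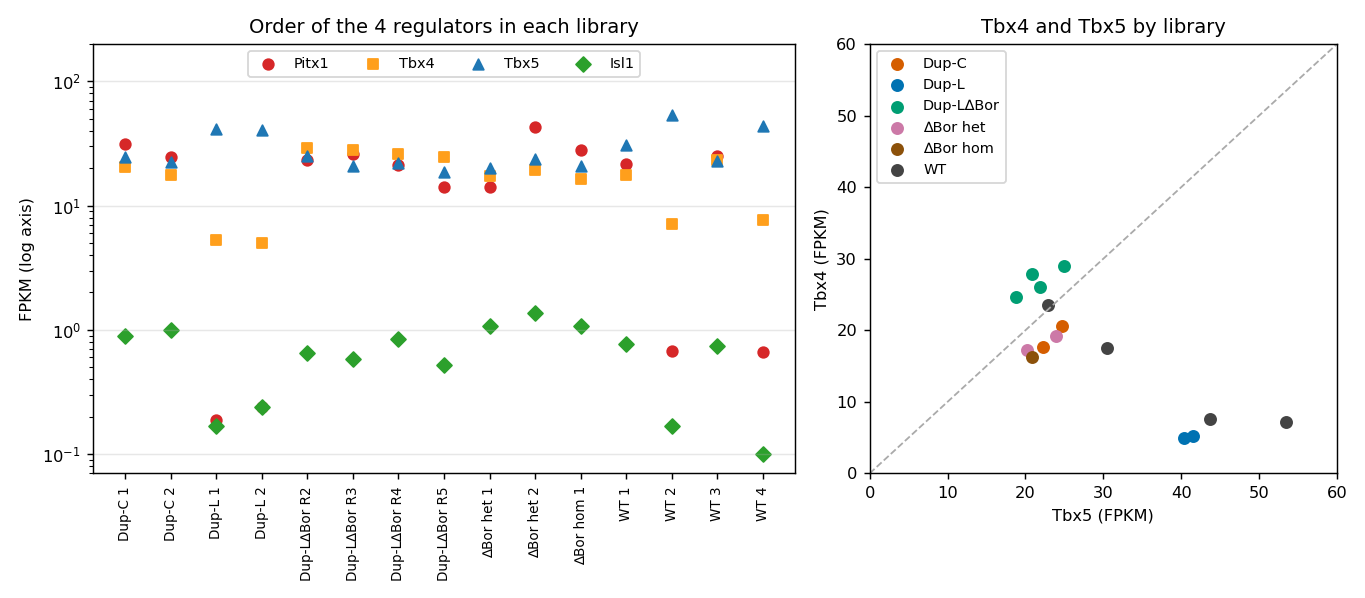
Left, FPKM of the 4 genes in each library on a log axis, with genotypes from left to right and WT last; right, Tbx4 against Tbx5 in FPKM on linear axes, 1 point per library coloured by genotype, with a dashed line where both are equal. In Dup-L 2 the point of Pitx1 lies under that of Isl1. Dup-L, WT 2 and WT 4 lie at the lower right (Tbx5 40.4 to 53.5 FPKM, Tbx4 5.01 to 7.63 FPKM), and the 4 Dup-L∆Bor libraries lie above the line.

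The ratio of Tbx4 to Tbx5 counts within a library does not depend on library scaling. Its log2 averaged -0.57 ± 0.05 in Dup-C (SD, n = 2), -3.27 ± 0.03 in Dup-L (n = 2), 0.04 ± 0.10 in Dup-L∆Bor (n = 4) and -0.55 ± 0.06 in ∆Bor het (n = 2), was -0.64 in the 1 ∆Bor hom library, and averaged -1.82 ± 1.39 in WT (n = 4). WT 2 and WT 4 were at -3.18 and -2.79, and WT 1 and WT 3 at -1.08 and -0.24. The spread within WT was wider than in any mutant group with replicates. All 4 Dup-L∆Bor libraries were above all 4 WT libraries, a difference of 1.86 with p = 0.0286 in a two-sided exact permutation test, the smallest p that 4 against 4 allows, and an adjusted p of 0.172 over the 6 comparisons tested this way. The other 5 comparisons could not reach 0.05, since the smallest p possible was 0.0667 for groups of 2 and 4 and 0.333 for 2 against 2. Of these, Dup-L∆Bor exceeded Dup-L by 3.31 (exact permutation p = 0.0667) and Dup-C exceeded Dup-L by 2.70 (exact permutation p = 0.333). In both cases the groups did not overlap, but how often ratios of other gene pairs separate these groups was not counted. The difference from WT was 1.25 for Dup-C (exact permutation p = 0.267), -1.45 for Dup-L (p = 0.133) and 1.27 for ∆Bor het (p = 0.267). The Dup-C and ∆Bor het libraries lay inside the WT range, and both Dup-L libraries, at -3.25 and -3.29, lay just under WT 2.

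Fold changes between genotypes were tested with edgeR's quasi-likelihood test, adjusted by Benjamini-Hochberg over all 17655 genes at a threshold of 0.05. In Dup-C against WT, none of the 4 genes passed, where 0.00566% of all genes did. At an unadjusted p under 0.05, 1 of the 4 would pass, Tbx5 with a log2 fold change of -0.64 (adjusted p = 0.255). Both Dup-C libraries lay within the WT range for Tbx4, and for Tbx5 Dup-C 2 lay just under the lowest WT library. For Isl1 both Dup-C libraries (2.57 and 2.87 CPM) lay above all 4 WT libraries (at most 2.20 CPM), and for Pitx1 Dup-C 1 (88.1 CPM) lay above the highest WT library (70.1 CPM).

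In Dup-L against WT, 2 of the 4 passed, Pitx1 and Tbx4, where 32.4% of all genes did (15.8% higher and 16.6% lower). Pitx1 fell by 5.80 on the log2 scale (SE 1.96, edgeR adjusted p = 0.0482), with 0.598 ± 0.113 CPM in Dup-L (n = 2) and 33.4 ± 36.7 CPM in WT (SD, n = 4). Tbx4 fell by 1.41 (SE 0.42, edgeR adjusted p = 0.0248), with a mean of 19.2 ± 0.543 CPM in Dup-L, against 51.1 ± 29.6 CPM in WT. For both genes each Dup-L library lay below every WT library, but WT 2 and WT 4 lay far nearer to Dup-L than to WT 1 and WT 3. Tbx5 did not pass, at 0.16 (SE 0.23, adjusted p = 0.646), nor did Isl1, at -1.11 (SE 0.66, adjusted p = 0.221). Within the first batch, where Dup-L met WT 1 and WT 2 only, Pitx1 was at -5.72 (edgeR adjusted p = 0.147), Tbx4 at -1.27 (0.0594), Tbx5 at -0.02 (0.95) and Isl1 at -1.19 (0.192). With GC content and length offsets Pitx1 was at -4.99 (edgeR adjusted p = 0.155) and Tbx4 at -1.23 (0.0818). The Pitx1 transcript has a GC content of 65.8%, against 53.9% for Tbx4, 51.3% for Tbx5 and 45.7% for Isl1. Both calls were also lost when either Dup-L library or WT 1 was left out, and that of Pitx1 also without WT 3.

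In Dup-L∆Bor against WT, Tbx5 alone passed, where 3.85% of all genes did (2.25% higher and 1.6% lower). It fell by 0.75 (SE 0.19, edgeR adjusted p = 0.0494), with 98.4 ± 11.4 CPM in Dup-L∆Bor (n = 4) and 166 ± 58.2 CPM in WT (n = 4). The groups overlapped, since WT 3 at 102 CPM lay below Dup-L∆Bor R2 at 113 CPM. The call was lost when any 1 of the 4 Dup-L∆Bor libraries, WT 1, WT 2 or WT 4 was left out, and without WT 2 the log2 fold change was -0.54 (edgeR adjusted p = 0.108). Within the second batch, against WT 3 and WT 4, it was -0.58 (edgeR adjusted p = 0.337). Tbx4 was higher in each Dup-L∆Bor library than in each WT library, yet its log2 fold change of 0.98 (SE 0.32, adjusted p = 0.1) did not pass, and within the second batch it was 0.82 (edgeR adjusted p = 0.486). Without WT 3, the WT library highest in Tbx4, it was 1.36 (edgeR adjusted p = 0.0216). Pitx1 was at 0.84 (SE 1.0, adjusted p = 0.655) and Isl1 at 0.56 (SE 0.47, adjusted p = 0.495).

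In ∆Bor het against WT, none of the 4 genes passed, where 4.03% of all genes did (2.25% higher and 1.78% lower), and in ∆Bor hom against WT none passed, where 1.27% did (0.901% higher and 0.374% lower). At an unadjusted p under 0.05, Tbx5 and Isl1 would pass in ∆Bor het and Tbx5 in ∆Bor hom. Tbx5 was at -0.75 in ∆Bor het (SE 0.24, edgeR adjusted p = 0.0819) and at -0.77 in ∆Bor hom (SE 0.32, adjusted p = 0.15), and by DESeq2 its change in ∆Bor het passed (-0.75, adjusted p = 0.0145). Isl1 was at 1.43 in ∆Bor het (SE 0.54, edgeR adjusted p = 0.118) and at 1.29 in ∆Bor hom (SE 0.68, adjusted p = 0.238). All 3 ∆Bor libraries lay above all 4 WT libraries for Isl1 and below all 4 for Tbx5, except that ∆Bor het 2 at 104 CPM of Tbx5 lay above WT 3 at 102 CPM. Without WT 1 both Isl1 (1.81, edgeR adjusted p = 0.0422) and Tbx5 (-0.84, 0.0444) passed in ∆Bor het, and without WT 3 Tbx5 did (-0.93, 0.0238). Within the first batch, Isl1 in ∆Bor het was at 1.36 (edgeR adjusted p = 0.331) and Tbx5 at -0.92 (0.205).

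Dup-L was also set against 2 of the other mutants. In Dup-L∆Bor against Dup-L, 3 of the 4 genes passed, where 43.6% of all genes did (21.5% higher and 22.1% lower). Pitx1 was higher by 6.64 (SE 1.99, edgeR adjusted p = 0.0231), with 60 ± 14.2 CPM in Dup-L∆Bor and 0.598 ± 0.113 CPM in Dup-L. Tbx4 was higher by 2.40 (SE 0.44, edgeR adjusted p = 0.00129), with 101 ± 7.18 CPM in Dup-L∆Bor and 19.2 ± 0.543 CPM in Dup-L. Tbx5 fell by 0.91 (SE 0.23, edgeR adjusted p = 0.00629), with 98.4 ± 11.4 CPM in Dup-L∆Bor and 185 ± 1.96 CPM in Dup-L (SD, n = 4 and 2 throughout). The groups did not overlap for any of the 4 genes, but the share of all genes without overlap was not counted. Isl1 was at 1.67 (SE 0.66, edgeR adjusted p = 0.0559). All Dup-L libraries lie in the first batch and all Dup-L∆Bor libraries in the second, so within-batch values cannot be had. With the batch as a term, estimated from WT alone, the 3 calls were lost, at 6.40 for Pitx1 (edgeR adjusted p = 0.132), 2.05 for Tbx4 (0.0597) and -0.58 for Tbx5 (0.292). Leaving out either Dup-L library ended the call of Pitx1, while those of Tbx4 (2.36 to 2.44) and Tbx5 (-0.98 to -0.84) stood whichever of the 6 libraries was left out.

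In Dup-C against Dup-L, both from the first batch, Pitx1 and Tbx4 passed, where 15.1% of all genes did (9.79% higher and 5.36% lower). Pitx1 was higher by 7.03 (SE 2.07, edgeR adjusted p = 0.0499), with 78.6 ± 13.4 CPM in Dup-C and 0.598 ± 0.113 CPM in Dup-L (SD, n = 2 each). Tbx4 was higher by 1.90 (SE 0.47, edgeR adjusted p = 0.0244), with 71.5 ± 6.80 CPM in Dup-C and 19.2 ± 0.543 CPM in Dup-L. Tbx5 was at -0.80 (SE 0.27, adjusted p = 0.0645) and Isl1 at 2.18 (SE 0.72, adjusted p = 0.0564), and again neither gene's groups overlapped. Here too the share of all genes without overlap was not counted. In a fit of the first batch alone, Tbx4 was at 1.92 (edgeR adjusted p = 0.0242), Tbx5 at -0.78 (0.0366) and Isl1 at 2.20 (0.0396), while Pitx1 was at 7.06 (0.106). Leaving out any 1 of the 4 libraries ended both calls, and then 0 of all genes tested passed in this comparison, against 2674 with all 4. The comparisons with WT share the 4 WT libraries, and those with Dup-L share its 2 libraries.

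**Figure D3:**
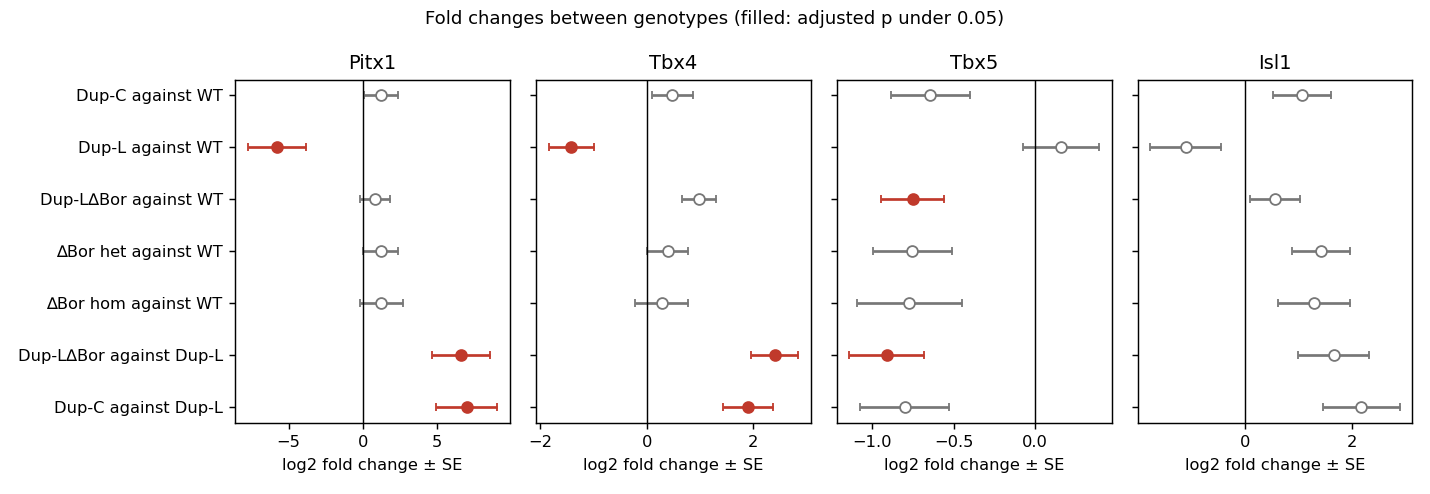
Log2 fold changes of the 4 genes in the 7 comparisons, with bars of 1 SE from edgeR's quasi-likelihood fit; filled red points have an adjusted p under 0.05, open grey points do not, and the horizontal axes differ between panels. The filled points are Pitx1 and Tbx4 in Dup-L against WT, Tbx5 in Dup-L∆Bor against WT, Pitx1, Tbx4 and Tbx5 in Dup-L∆Bor against Dup-L, and Pitx1 and Tbx4 in Dup-C against Dup-L.

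Genes that act beside the 4 regulators were followed as lists. The posterior HoxC genes Hoxc9 to Hoxc13 had all 5 members tested. Limb expression is largely a hindlimb trait for Hoxc9 to Hoxc11, and Hoxc12 and Hoxc13 are not read as hindlimb markers here. In Dup-L against WT, 2 of 5 fell and none rose, with a median log2 fold change of -1.34, against 0 over all genes, of which 32.4% were called and 16.6% were lower. Without Dup-L 1 the list had 1 call and without Dup-L 2 it had 0. Hoxc12 was at -1.50 (SE 0.31, edgeR adjusted p = 0.00313) and Hoxc11 at -1.99 (SE 0.56, adjusted p = 0.0147). Hoxc12 stood at 1.77 and 1.25 CPM in Dup-L, against 4.40, 3.96, 5.14 and 3.61 CPM in WT 1 to 4. Its levels in WT 2 and WT 4 were thus near those of WT 1 and WT 3, unlike Pitx1. Hoxc12 was also low in ∆Bor het 1, at 2.06 CPM, with ∆Bor het 2 at 3.92 CPM. Hoxc13 stood at 8.39 and 8.05 CPM in Dup-L, against 11.4, 7.75, 6.34 and 4.25 CPM in WT 1 to 4.

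Hoxc10 followed Pitx1 more closely. It stood at 9.48 and 12.3 CPM in Dup-C and 1.99 and 1.54 CPM in Dup-L. In Dup-L∆Bor R2 to R5 the levels were 5.47, 8.19, 4.46 and 4.03 CPM, with 9.76 and 12.4 CPM in ∆Bor het and 10.6 CPM in ∆Bor hom, against 9.37, 1.65, 5.52 and 1.19 CPM in WT 1 to 4. The same 4 libraries as for Pitx1 were lowest. Hoxc10 did not pass in Dup-L against WT (-1.34, edgeR adjusted p = 0.171).

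In Dup-C against Dup-L, 4 of the 5 posterior HoxC genes rose (Hoxc9, Hoxc10, Hoxc11 and Hoxc12), where 15.1% of all genes were called and 9.79% were higher. The list median was 1.80, against -0.04 over all genes. Hoxc11 was highest, at 3.04 (SE 0.61, edgeR adjusted p = 0.0109), with 3.74 and 4.78 CPM in Dup-C and 0.545 and 0.488 CPM in Dup-L. With any 1 of these 4 libraries left out, 0 of the 5 passed. In Dup-L∆Bor against Dup-L, Hoxc12 rose (1.28, edgeR adjusted p = 0.00406) and Hoxc13 fell (-0.82, adjusted p = 0.0311), with a list median of 1.28, against 0.01 over all genes, of which 43.6% were called. Without Dup-L 2 neither direction had a call, without Dup-L 1, Dup-L∆Bor R2 or Dup-L∆Bor R5 the list had no lower call, and batch and genotype cannot be told apart in this comparison. In the other 4 comparisons none of the 5 passed with edgeR, where 0.00566% to 4.03% of all genes were called. DESeq2 called 1 of them in Dup-L∆Bor against WT. At an unadjusted p under 0.05, 5 passed over these 4 comparisons, and the share of all genes at that threshold was not counted.

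The anterior HoxC genes Hoxc4, Hoxc5, Hoxc6 and Hoxc8, genes of the forelimb level of the body axis, gave 0 calls in the 7 comparisons with edgeR, 3 at an unadjusted p under 0.05 and 2 with DESeq2. Their summed level was 8.87 and 14.5 CPM in Dup-C, 5.23 and 5.01 CPM in Dup-L and 6.36 to 9.87 CPM in Dup-L∆Bor. In WT 1 to 4 it was 13.4, 7.27, 5.22 and 3.39 CPM, and WT 4 was the lowest of all libraries. The genes known to act upstream of Tbx5 in the forelimb field (Hox genes of paralog groups 4 and 5, Meis1, Meis2, Aldh1a2, which makes retinoic acid, and Ctnnb1, the effector of Wnt signals) gave 0 calls of 9 genes in each comparison. At an unadjusted p under 0.05 there were 9 over the 7 comparisons, and DESeq2 called 2. In these comparisons edgeR called 0.00566% (Dup-C against WT) to 43.6% (Dup-L∆Bor against Dup-L) of all genes. The share of all genes at an unadjusted p under 0.05 was not counted.

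**Figure D4:**
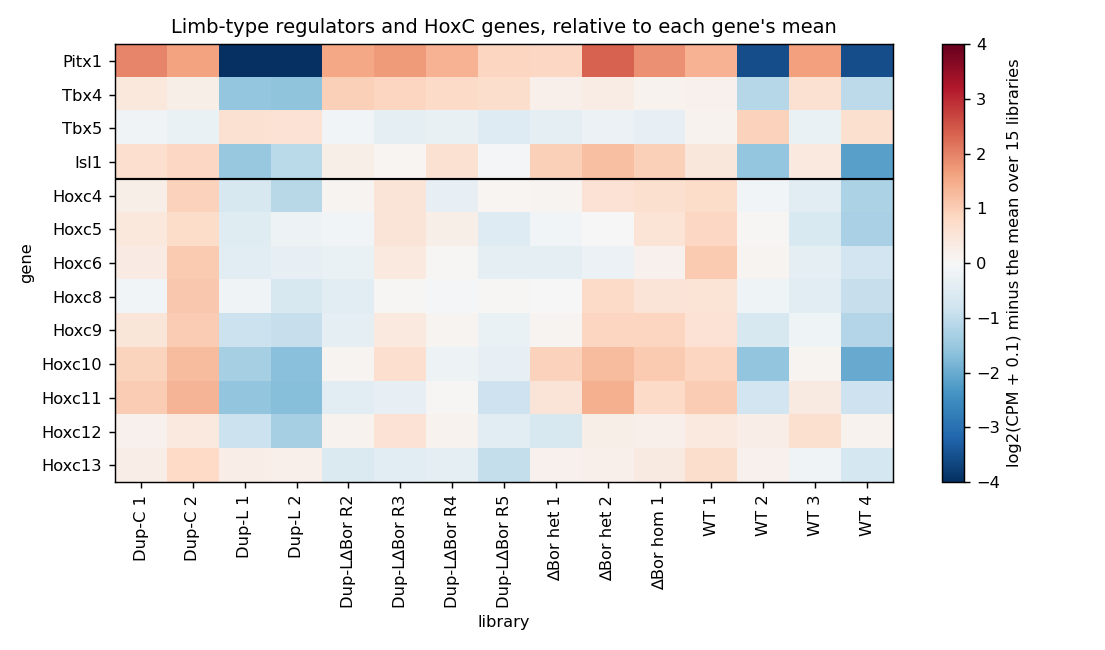
Level of the 4 regulators (above the line) and the 9 HoxC genes (below it) in each library, as log2(CPM + 0.1) minus the gene's mean over the 15 libraries, with genotypes from left to right and WT last; colours stop at 4 on either side. Dup-L, WT 2 and WT 4 are blue for Pitx1, Tbx4, Isl1 and Hoxc10 and pale red for Tbx5, while WT 2 is close to white for Hoxc4 to Hoxc8.

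Relatives of the regulators were counted in the same way. Of 11 T-box paralogs tested, Tbx2 and Tbx1 fell and Tbx18 rose in Dup-L against WT, with a list median of 0.09, against 0 over all genes. These 3 of 11 are near the 32.4% of all genes called. Within the first batch no T-box paralog rose, and without Dup-L 2 none rose and 1 fell. Tbx18 stood at 194 and 193 CPM in Dup-L, against 120, 166, 123 and 151 CPM in WT 1 to 4, so WT 2 and WT 4 lay between Dup-L and the other WT libraries. Its log2 fold change was 0.47 (SE 0.11, edgeR adjusted p = 0.00631). Tbx2, which neighbours Tbx4, stood at 19.1 and 18.4 CPM in Dup-L, against 39.9, 34.1, 41.4 and 37.5 CPM in WT 1 to 4, and fell by 1.03 (SE 0.19, edgeR adjusted p = 0.00192). WT 2 and WT 4 were near the other WT libraries for Tbx2. Among the mutants, ∆Bor het 1 was near Dup-L for Tbx2, at 22.7 CPM, with ∆Bor het 2 at 39.3 CPM. Tbx3, which neighbours Tbx5 and patterns the limb margins, fell in Dup-L∆Bor against WT by 0.71 (SE 0.17, edgeR adjusted p = 0.0361). Tbx3 stood at 29.9, 23.9, 28.5 and 23.9 CPM in Dup-L∆Bor, against 57.7, 48.7, 32.4 and 35.4 CPM in WT 1 to 4, with the second-batch WT 3 and WT 4 nearest.

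Of 11 Pitx and LIM-homeodomain relatives tested, 5 fell in Dup-L against WT and none rose, where 16.6% of all genes were lower, with a list median of -0.51: Lmx1b, the selector of dorsal limb identity, the LIM cofactor Ldb1, Lhx2, Isl2 and Pitx3. Lmx1b stood at 16.7 and 17.9 CPM in Dup-L, against 38.9, 38.2, 41.2 and 33.3 CPM in WT 1 to 4, and fell by 1.13 (SE 0.17, edgeR adjusted p = 0.00138). The low level was not particular to Dup-L, since ∆Bor het 1 stood at 21.8 CPM, with ∆Bor het 2 at 36.5 CPM. Left out one by one, the libraries gave 1 to 5 lower calls in this list for Dup-L against WT. The 4 of these other than Pitx3 were higher in both Dup-C and Dup-L∆Bor than in Dup-L, with Lmx1b at 1.08 (edgeR adjusted p = 0.00906) in Dup-C and 1.15 (0.000158) in Dup-L∆Bor. Among 13 limb outgrowth genes that act downstream, 4 fell in Dup-L against WT (Hand2, Fgf8, Bmp4 and Wnt3), with a list median of -0.17. None of the 13 rose, where 32.4% of all genes were called and 16.6% were lower. Within the first batch 2 fell, and with 1 library left out 0 (without Dup-L 2) to 5 (without WT 4) fell, with 1 call without Dup-L 1, WT 1 or WT 3. Fgf8, a signal of the apical ridge, stood at 1.23 and 1.14 CPM in Dup-L, against 5.91, 2.2, 3.46 and 2.30 CPM in WT 1 to 4, and fell by 1.55 (SE 0.50, edgeR adjusted p = 0.0286). Fgf10 itself, a target of Tbx5 and Tbx4 in mice, passed only in Dup-L∆Bor against Dup-L, where it fell by 0.86 (SE 0.16, edgeR adjusted p = 0.000785).

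Over the other comparisons with WT, Tbx3 was the 1 edgeR call among the T-box paralogs (DESeq2 called 1 in Dup-L∆Bor, 1 in ∆Bor het and 2 in ∆Bor hom, and 2 passed at an unadjusted p under 0.05 in Dup-C, 4 in Dup-L∆Bor, 3 in ∆Bor het and 3 in ∆Bor hom), and the Pitx and LIM-homeodomain relatives and the outgrowth genes had 0. At an unadjusted p under 0.05 these last 2 lists had 8 calls each over those 4 comparisons, and DESeq2 called 1 of the relatives and 2 of the outgrowth genes. Dup-L∆Bor against Dup-L gave 2 higher and 3 lower of 11 T-box paralogs and 2 higher and 1 lower of 13 outgrowth genes, where 43.6% of all genes were called. Dup-C against Dup-L gave 2 higher and 1 lower T-box paralogs and 5 higher outgrowth genes, where 15.1% of all genes were called, and all of these calls were lost when any 1 of its 4 libraries was left out. Calls among tissue markers came mostly in the comparisons with these high shares of called genes. In Dup-L against WT, the limb mesenchyme markers Msx1 and Prrx2 fell and Prrx1 and Hoxd13 rose, the neuron markers Tubb3 and Isl2 fell and Stmn2 rose, and the heart marker Myh6 fell. Msx1, a gene of the distal limb margin, fell by 1.73 (SE 0.41, edgeR adjusted p = 0.00849). It stood at 13.3 and 10.8 CPM in Dup-L, but also at 14.5 CPM in ∆Bor het 1, with 62.2 CPM in ∆Bor het 2. In Dup-L∆Bor against Dup-L, 2 mesenchyme markers were higher and 3 lower, 2 neuron markers higher and 2 lower, and Myh6 and the pituitary marker Pomc higher. In Dup-C against Dup-L, 2 mesenchyme markers were higher, and 2 neuron markers higher and 1 lower. The remaining marker calls were Nppa, higher in Dup-L∆Bor against WT, and Tubb3, lower in ∆Bor het against WT. The part of tissue makeup in the levels of the 4 regulators was not tested.

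Chromosomal neighbours, taken as the 2 protein-coding genes on each side in an annotation of GRCm38, were examined for each regulator. Around Pitx1, Pcbd2, Catsper3, H2afy and Tifab passed in 0 of the 7 comparisons, and H2afy stayed between 228 and 285 CPM while Pitx1 varied from 0.518 to 116 CPM. Around Tbx4, Tbx2 passed in the same 3 comparisons as Tbx4 (Dup-L against WT, and both Dup-L∆Bor and Dup-C against Dup-L) and in the same directions, Bcas3 and Brip1 in 2 each and Ints2 in none. The 3 comparisons of Tbx2 called 32.4%, 43.6% and 15.1% of all genes, in that order. Within WT the 2 genes differed, with Tbx2 at 34.1 to 41.4 CPM and Tbx4 at 25.8 to 86.5 CPM. Around Tbx5, Tbx3 (23.9 to 57.7 CPM) passed in the same 2 comparisons as Tbx5, Dup-L∆Bor against WT and against Dup-L, and was lower in both, and Med13l and Rbm19 in 1 each, and Lhx5 was at 0 in all libraries. The 2 comparisons of Tbx3 called 3.85% and 43.6% of all genes. Around Isl1, Pelo (5.18 to 18.3 CPM) passed in 4 and Itga1 in 1, while Parp8 and Emb did not. The 4 of Pelo were Dup-L and ∆Bor het against WT, and Dup-L∆Bor and Dup-C against Dup-L. In that order, they called 32.4%, 4.03%, 43.6% and 15.1% of all genes. Tbx4 lies on chromosome 11, as does the altered Sox9/Kcnj locus. No gene had counts identical to those of any of the 4 regulators. In GRCm38, Pitx1 overlaps an antisense gene, Gm47071, and a noncoding gene, Gm28760, which are not among the genes analysed here, and no label or file header states whether counting used strand.

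Likeness across the 15 libraries was measured as Pearson's r of log2 CPM over 17654 other genes. The libraries form separate high and low sets for these genes, and share depth and batch, so r is a description with no p. Tbx4 ranked 2nd and Isl1 5th in likeness to Pitx1 (r = 0.941 and 0.907), and Pitx1 ranked 1st for Tbx4. Tbx4 and Isl1 were less alike (r = 0.785), with Isl1 at rank 243 for Tbx4 and Tbx4 at rank 73 for Isl1. Tbx4 and Pitx1 were the 2 genes most opposed to Tbx5 (r = -0.887 and -0.883). Of other genes, Crispld2, which encodes a secreted protein, was closest to Pitx1 (r = 0.959), followed after Tbx4 by Rnf165 (0.923) and Drosha, the nuclear miRNA-processing enzyme (0.908). The range of Crispld2 was far smaller, at 7.58 and 7.26 CPM in Dup-L against 12.4, 9.22, 11.3 and 8.66 CPM in WT 1 to 4. Cadm2 and Ly86 were the most opposed to Pitx1 (r = -0.900 each), ahead of Tbx5, with Slc44a5 and Rcn1 behind it (-0.880 each).

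For Tbx4, Pitx1 was followed by Crispld2, Huwe1, Cadm3 and Zbtb5 (r = 0.929 to 0.916). For Tbx5, the transcript listed as AK087181_gene came first (r = 0.977), at 10.1 and 9.45 CPM in Dup-L and 6.18, 12.8, 4.85 and 10.1 CPM in WT 1 to 4. It was followed by Fzd5, a Wnt receptor, Grm7, Prdm6 and Asb8 (r = 0.888 to 0.853). Isl1 and Rad54l2 were also among the 5 genes most opposed to Tbx5 (r = -0.863 and -0.859). For Isl1, Gm53 (r = 0.947), Hoxc10 (0.943), Pitx1 (0.907), Asxl1 (0.886) and Mir196a-1 (0.883) came first, the last as the table lists it. With Spearman's rho in place of r, 0 of the 5 closest genes were kept for Pitx1 and Tbx4, 1 for Isl1 and 2 for Tbx5, and 0 of the 5 most opposed genes were kept for Pitx1 and for Tbx5. By rho, neither Tbx4 nor Pitx1 was among the 5 genes most opposed to Tbx5.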

How the data were processed

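PolyA RNA of mouse limb buds was sequenced from TruSeq RNA V2 libraries, per the labels' protocols. Per the submitters' processing notes, STAR, DESeq2 and bedtools 2.17.0 were used with mm9; no source used here names the tool that counted reads, the gene models or the handling of strand. The deposited table of raw counts per gene and the authors' FPKM table (rounded to 2 decimals) hold 34682 genes in 15 columns. Columns were matched to labels by genotype and replicate; the Dup-L∆Bor columns, under another genotype string that joins a duplication and a deletion, match only by group, and the ∆Bor hom column is numbered R3 where its label gives replicate 1. The headers of Dup-L∆Bor R4 and R5 share a library number, but their counts differed with a mean chi-square per gene of 25.5 (5.93 to 33.1 over the pairs of that group), so both were kept. Low genes were removed with filterByExpr, counts were scaled by TMM, and a two-sided quasi-likelihood F-test with robust dispersions was run in edgeR 4.0.16 under R 4.3.3, with all 6 groups in 1 fit and no block or batch. P-values were adjusted over 17655 genes, at a threshold of 0.05; SE is the log2 fold change divided by the root of F. The single ∆Bor hom library is assumed to vary like the others. A gene "rose", "fell", "passed" or was "called" only past that threshold. Log2 ratios of Tbx4 to Tbx5 counts were compared by exact permutation. Alternatives were RLE scaling, no filter, DESeq2 1.42.0, limma 3.58.1 on log2(FPKM + 0.5) or log2(FPKM + 0.1), a replicate block, batch, GC content and length offsets (available for 86.4% of tested genes) and each library left out. The fit was tested on simulated counts.

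The 4 genes and the gene lists were chosen with earlier results of these data known. Genes named are the 4, the 5 most like each (and the 5 most opposed to Pitx1 and Tbx5) by Pearson's r of log2 CPM with a prior count of 2, list members past the threshold, and the 2 nearest protein-coding genes on each side; 1 gene that this rule names is not reported here. Other list genes named with values (Hoxc10 in Dup-L against WT, for example) were chosen after their values were seen. Chromosomes, neighbours, GC content and length came by symbol from GRCm38, another build than the files', so coordinates are given for the RefSeq promoter windows only.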

Additional observations from a re-analysis of the deposited data

Results flagged for a closer look

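Among 66 groups of 4 libraries (the 4 regulators, the HoxC genes and the genes most like or opposed to the regulators, in Dup-L∆Bor and in WT), 3 held a library whose gap to the nearest of the others was above Dixon's 95% critical value of 0.829 of the group's range; chance flags about 5% of groups. All 3 were genes found by likeness and none was one of the 4 regulators. In Dup-L∆Bor, Slc44a5 was at 1.92 CPM in R3, below the other libraries, Huwe1 at 570 CPM in R5, above them, and Gm53 at 1.67 CPM in R2, above them. Dup-L and ∆Bor groups are too small for this check.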

How the results depend on the processing

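Over 34 results and their alternatives 462 values were computed, of which 389 kept direction and side of the threshold, 55 lost the call, 15 gained one and 3 reversed; causes of these changes were not tested. Values are log2 fold changes with edgeR unless another tool is named. The reversals are Tbx5 in Dup-L against WT, at -0.01 with the replicate block, -0.02 within the batch and -0.02 without WT 3, against 0.16. Pitx1 in Dup-L against WT lost its call without the filter (-5.87), by limma on log2(FPKM + 0.5) with and without a filter (-2.89 in both), with the replicate block (-5.42), batch as a term (-5.68), within the batch (-5.72) and with GC content and length offsets (-4.99). Tbx4 in that comparison lost it without the filter (-1.49), with the block (-1.21), batch as a term (-1.23), within the batch (-1.27) and with offsets (-1.23). Tbx5 in Dup-L∆Bor against WT lost it without the filter (-0.76), by limma (-0.72 with a pseudocount of 0.5, filtered or not, and -0.73 with 0.1), with batch as a term (-0.58) and within the batch (-0.58). Pitx1 in Dup-C against Dup-L lost it without the filter (7.09), with the block (7.07), batch as a term (7.03), within the batch (7.06) and with offsets (6.32). In Dup-L∆Bor against Dup-L, batch as a term ended the calls of Pitx1 (6.40), Tbx4 (2.05) and Tbx5 (-0.58), and offsets that of Pitx1 (5.81). Calls were gained by DESeq2 for Tbx5 in ∆Bor het against WT (-0.75), Isl1 in Dup-L∆Bor against Dup-L (1.68) and Tbx5 (-0.79) and Isl1 (2.21) in Dup-C against Dup-L. Isl1 in Dup-L∆Bor against Dup-L also gained one by limma (0.70 and 1.29) and with offsets (2.0). In Dup-C against Dup-L, Isl1 gained one by limma (1.04) and within the batch (2.20), and Tbx5 with the block (-0.76) and within the batch (-0.78). DESeq2 gave no adjusted p for the 4 genes in Dup-C against WT. With each library left out in turn, the ranges were -6.19 to -5.16 for Pitx1, -1.62 to -1.04 for Tbx4 and -0.02 to 0.38 for Tbx5 in Dup-L against WT; 0.76 to 1.36 for Tbx4 and -0.93 to -0.54 for Tbx5 in Dup-L∆Bor against WT; 1.13 to 1.81 for Isl1 and -0.93 to -0.53 for Tbx5 in ∆Bor het against WT. They were 6.46 to 6.84 for Pitx1 in Dup-L∆Bor against Dup-L, and 6.85 to 7.25 for Pitx1 and 1.80 to 1.99 for Tbx4 in Dup-C against Dup-L. A lone library left in a group is assumed to vary like the others. The Tbx4 to Tbx5 ratio in Dup-L∆Bor against WT ranged from 1.41 to 2.39 with an exact permutation p of 0.0571 without any 1 Dup-L∆Bor library and 0.0286 without any 1 WT library. Replicate numbers are not said to mark a shared litter or batch, and correlations of same-numbered deviations were -0.18 to 0.10, so they only name samples; the block was run for replicates 1 and 2 of Dup-C, Dup-L, ∆Bor het and WT, and other groups share too few numbers. Within-batch fits could not be had for Dup-L∆Bor against Dup-L. Counts of genes past the threshold ranged over settings, with the reported count first, as 1 (0 to 23) in Dup-C, 5719 (1146 to 6196) in Dup-L, 679 (66 to 1634) in Dup-L∆Bor, 712 (32 to 2150) in ∆Bor het and 225 (15 to 2197) in ∆Bor hom against WT, and as 7704 (2298 to 7829) in Dup-L∆Bor and 2674 (759 to 3648) in Dup-C against Dup-L. Leaving out WT 1 gave 1640 in Dup-C, 2490 in ∆Bor het and 2750 in ∆Bor hom, and leaving out Dup-L 2 gave 1122 and Dup-L 1 gave 2740 in Dup-L. Leaving out 1 library gave 81 (without R3) to 1516 (without WT 4) in Dup-L∆Bor against WT, and each of the 8 moved that count by over 1.5 times; ∆Bor het had 19 without its replicate 1, 1929 without its replicate 2, 205 without WT 3 and 56 without WT 4, and ∆Bor hom 76 without WT 2, 114 without WT 3 and 21 without WT 4. Dup-L∆Bor against Dup-L had 4943 without Dup-L 1 and 4438 without Dup-L 2. With any 1 of its libraries left out, Dup-C against Dup-L had 0. With offsets, Dup-L against WT had 167 higher and 979 lower genes, against 2797 and 2922, and Dup-C against Dup-L 665 and 94, against 1728 and 946. Dup-L∆Bor against Dup-L then had 2596 and 1725, against 3794 and 3910, ∆Bor het against WT 33 and 46, against 398 and 314, and ∆Bor hom against WT 9 and 6, against 159 and 66. By DESeq2, Dup-L∆Bor against WT had 785 higher and 849 lower genes, against 397 and 282. Depth limits Isl1, with 10 to 145 counts, and Pitx1 in Dup-L.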
